A study of Mus musculus with 6 samples.

Results

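The 32 genes described here encode the enzymes and the regulators of sterol and fatty acid synthesis. They were chosen by symbol, as 5 regulators of the SREBP pathway, 18 genes of the sterol arm and 9 genes of the fatty acid arm. Each of the 32 was found among 34591 gene rows, and each passed the filter on low counts that left 16768 tested genes. The counts came from RNA-seq of 6 libraries of mouse brain tumours, models of WNT medulloblastoma, a hindbrain tumour in which the WNT pathway is switched on. By their descriptions 3 libraries are control and 3 are sh2-Ift88, a knock-down of Ift88, a subunit of the transport complex that builds primary cilia. Both groups are tumours of the same named model, and the knock-down is the 1 difference the descriptions give, although the treatment field names it for all 6 samples. The sources used here do not give the alleles or virus that make the tumours, the cells in which the hairpin acts, the age of the mice or whether each library is a separate animal. If libraries share an animal or culture, the p-values measure a spread that is partly technical.

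Cells make cholesterol from acetyl-CoA through mevalonate, squalene and lanosterol, and make fatty acids from the same acetyl-CoA through malonyl-CoA. SREBP transcription factors turn these genes on: SREBP-2, the product of Srebf2, acts mainly on the sterol arm, and SREBP-1, the product of Srebf1, mainly on the fatty acid arm. The escort protein Scap carries them to the Golgi for cleavage when sterols are low, and the Insig proteins hold Scap back when sterols are high. The brain makes nearly all its cholesterol itself, much of it in glia and for myelin.

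Several facts of the libraries bear on these genes. Gene counts summed to between 26802618 and 33772559 per library, and levels below are in CPM, a read count scaled to library size with TMM factors. The TMM factor was 0.598 in sh2-Ift88 3, where the predicted gene Gm10800 took 20.3% of counts, and 1.05 to 1.24 in the others. Ift88 itself was at 13.8, 19.7 and 13.7 CPM across control 1 to 3 and at 14.7, 16.0 and 14.4 CPM across sh2-Ift88 1 to 3, so the targeted transcript did not separate the groups (log2 fold change -0.064), and sh2-Ift88 below always means the library labelled so. The WNT target Axin2 was at 320.1 CPM or more in every library. Control 2, sh2-Ift88 2 and sh2-Ift88 3 carried reads of more than 100 olfactory receptor genes, which tumour cells do not normally express, and the other 3 did not. The library sh2-Ift88 1 alone held choroid plexus transcripts: 4 markers summed to 1.64, 3.51 and 1.80 CPM across control 1 to 3 and 1422, 3.93 and 3.00 CPM across sh2-Ift88 1 to 3, with Ttr at 1389 CPM in sh2-Ift88 1 and at most 0.739 CPM elsewhere. In bulk tissue, fewer cells of a type and less RNA per cell cannot be told apart.

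The promoters of 7 members are shown because the data below turn on them: the regulators Srebf2 and Insig1, the sterol genes whose groups did not overlap (Mvk, Cyp51 and Tm7sf2), Hmgcs1, and Fasn for the fatty acid arm. Each is the 250 bases before the RefSeq start (build GRCm38.p6), 5′ to 3′ on the gene's strand. Capitals mark 3 motifs searched on both strands: the sterol regulatory element TCACNCCAC, the E-box CACGTG and the CCAAT box CCAAT, which reads ATTGG on the other strand.
Srebf2 (chr15:82147019-82147268, plus strand): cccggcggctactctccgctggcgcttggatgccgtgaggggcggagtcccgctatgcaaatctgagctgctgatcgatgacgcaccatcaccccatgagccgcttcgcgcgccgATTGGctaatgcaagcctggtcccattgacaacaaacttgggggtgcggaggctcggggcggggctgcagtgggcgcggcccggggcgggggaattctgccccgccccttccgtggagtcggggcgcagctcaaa
Insig1 (chr5:28071162-28071411, plus strand): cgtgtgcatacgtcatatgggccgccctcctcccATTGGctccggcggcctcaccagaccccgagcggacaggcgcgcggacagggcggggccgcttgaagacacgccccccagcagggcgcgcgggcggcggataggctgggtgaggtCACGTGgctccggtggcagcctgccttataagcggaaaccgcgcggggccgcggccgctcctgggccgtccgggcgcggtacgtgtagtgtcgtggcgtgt
Hmgcs1 (chr13:119690101-119690350, plus strand): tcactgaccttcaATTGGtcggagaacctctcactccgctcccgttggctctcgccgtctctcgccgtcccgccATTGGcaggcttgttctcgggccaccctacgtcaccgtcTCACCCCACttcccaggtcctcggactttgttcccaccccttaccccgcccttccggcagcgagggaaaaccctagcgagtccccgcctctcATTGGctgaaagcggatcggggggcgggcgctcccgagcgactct
Mvk (chr5:114444019-114444268, plus strand): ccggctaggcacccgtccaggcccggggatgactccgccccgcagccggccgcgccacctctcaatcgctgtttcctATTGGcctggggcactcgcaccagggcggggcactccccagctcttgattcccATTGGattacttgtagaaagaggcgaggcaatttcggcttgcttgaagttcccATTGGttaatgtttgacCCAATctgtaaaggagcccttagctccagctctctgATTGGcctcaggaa
Cyp51 (chr5:4104698-4104947, minus strand): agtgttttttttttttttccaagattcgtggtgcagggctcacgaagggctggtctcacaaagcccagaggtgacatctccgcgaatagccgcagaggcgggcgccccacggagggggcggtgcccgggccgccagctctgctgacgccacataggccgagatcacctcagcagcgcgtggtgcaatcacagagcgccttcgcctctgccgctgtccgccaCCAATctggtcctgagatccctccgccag
Tm7sf2 (chr19:6067851-6068100, minus strand): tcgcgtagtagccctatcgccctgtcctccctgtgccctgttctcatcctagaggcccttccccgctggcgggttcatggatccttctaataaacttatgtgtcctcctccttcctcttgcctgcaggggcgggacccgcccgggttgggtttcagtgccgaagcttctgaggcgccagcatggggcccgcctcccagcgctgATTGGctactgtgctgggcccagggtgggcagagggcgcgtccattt
Fasn (chr11:120824548-120824797, minus strand): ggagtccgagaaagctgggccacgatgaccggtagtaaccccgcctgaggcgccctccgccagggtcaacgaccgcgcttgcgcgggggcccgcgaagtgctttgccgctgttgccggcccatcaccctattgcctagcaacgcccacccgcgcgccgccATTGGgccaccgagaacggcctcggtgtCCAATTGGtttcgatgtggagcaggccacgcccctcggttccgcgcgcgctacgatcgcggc
In Fasn, 1 pair of CCAAT boxes on opposite strands shares bases, and the Insig1 E-box reads the same on both strands. The Hmgcs1 start was not found in a GENCODE transcript. Promoter windows were found for 25 of 32 members. The strict sterol element stood in 1 of the 25 genes, Hmgcs1, against 1.27% of 10637 tested genes with a window. A CCAAT box, where the factor NF-Y binds beside SREBP, stood in 19 of 25 genes against 40.2% of tested genes. It was in 13 of 14 sterol arm genes with a window, 4 of 5 regulators and 2 of 6 fatty acid arm genes. The E-box stood in 5 of 25 against 9.65%. These are matches of letters and not measured sites, and the CCAAT box was added to the search after the data were seen.

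No member passed the test between the groups. At an adjusted p of 0.05 edgeR called 0 of 32 members and 0 of 16768 genes (0% of genes in either direction), DESeq2 called 0 members and 0.396% of genes, and limma-voom called 0 of both. The edgeR quasi-likelihood adjusted p was 0.9995 for each member. At an unadjusted p of 0.05 edgeR put 3 of 32 members higher and 0 lower, against 1.97% and 1.26% of all genes (3.23% in either direction). With 1 library left out, 1 member was higher without sh2-Ift88 1 (1.97% of genes in that fit) or without sh2-Ift88 3 (1.61%). It was 6 members without control 1 (3.72%) and 9 without sh2-Ift88 2 (1.93%). The groups did not overlap for 6 members, all higher in sh2-Ift88, against 4.70% of genes higher and 3.69% lower (8.39% in either direction). With 1 library left out non-overlap is more frequent among all genes too. It held for 15 members without control 1 (21.1% of genes), 15 without sh2-Ift88 2 (17.4%), 12 without control 3 (15.2%), 8 without sh2-Ift88 1 (18.5%) and 6 without control 2 (18.8%) or sh2-Ift88 3 (17.1%). With library totals alone it held for 1 member, Tm7sf2, against 11.2% of genes. The groups of Srebf2, Mvk, Cyp51, Scd1 and Fads1 then overlapped. In 2 members, Hmgcs1 and Ebp, the highest library held at least 2 times the next, against 8.39% of all genes and 3.34% of genes with a median of 10 CPM or more. By sign, 25 of 32 members were higher in sh2-Ift88 against 48.7% of genes, and 17 of 32 were with library totals alone, which put the median of all genes at -0.33 on the log2 scale. Relative to that median the count was again 25 of 32. The members were proposed with results of these data known, so these counts are descriptions.

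**Figure D1:**
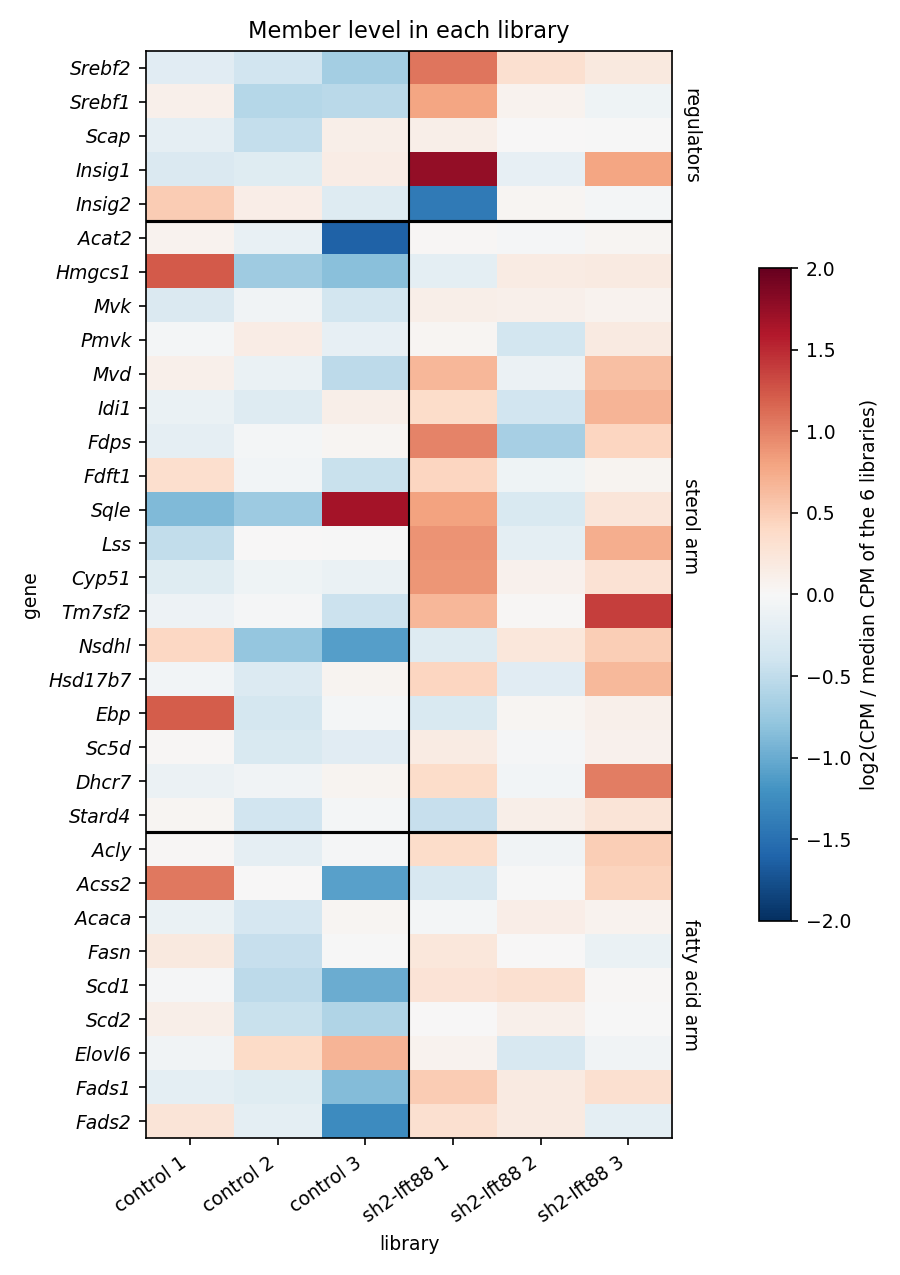
Heat map of the 32 members (rows) in the 6 libraries (columns), as log2 of CPM over the gene's median of the 6 libraries, with red above and blue below that median. Insig1 is strongest in sh2-Ift88 1, where Insig2 is lowest, and Hmgcs1 and Ebp in control 1, Sqle in control 3 (high) and Acat2 in control 3 (low) stand out as single dark cells.

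Among the regulators, Srebf2 separated the groups with TMM scaling, and no regulator did with library totals alone. Srebf2, the sterol-side transcription factor, was at 109.5, 98.3 and 80.2 CPM across control 1, 2 and 3 and at 270.5, 160.4 and 148 CPM across sh2-Ift88 1, 2 and 3. Every sh2-Ift88 library lay above every control, with sh2-Ift88 1 highest. Its level was 96.0 ± 14.8 CPM in controls and 193 ± 67.4 CPM in sh2-Ift88 (mean ± SD, n = 3 each), and its log2 fold change came to 1.01 ± 0.31 (SE) (edgeR unadjusted p = 0.0123). Without sh2-Ift88 1, the library with choroid plexus transcripts, the log2 fold change of Srebf2 was 0.67. Srebf1, the fatty acid-side factor, was at 136, 85.9 and 87.2 CPM across control 1 to 3 and at 221, 134 and 120.2 CPM across sh2-Ift88 1 to 3. Control 1 lay above sh2-Ift88 2 and 3 for Srebf1, so its groups overlapped, and its log2 fold change came to 0.62 ± 0.33 (SE). Without sh2-Ift88 1 that value was 0.29.

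The 2 Insig genes ran in opposite directions in sh2-Ift88 1. Insig1, which sterol-starved cells induce through SREBP, was at 55.0, 56.9 and 74.3 CPM across control 1 to 3 and at 228, 60.4 and 116 CPM across sh2-Ift88 1 to 3. The library sh2-Ift88 1 held 3.78 times the median of the other 5, and sh2-Ift88 2 lay below control 3. Its log2 fold change came to 1.12 ± 0.47 (SE) (unadjusted p = 0.0465 by edgeR), and 0.49 without sh2-Ift88 1. Insig2, its paralog, was at 33.9, 26.2 and 19.8 CPM across control 1 to 3 and at 8.91, 24.5 and 23.0 CPM across sh2-Ift88 1 to 3. Its lowest library was sh2-Ift88 1, and its log2 fold change came to -0.50 ± 0.42 (SE), and -0.18 without that library. In sh2-Ift88 1 the 20 genes nearest Insig2 were at 0.67 times the other libraries, and those nearest Insig1 at 1.15. The part of the neighbourhood in these levels was not tested. Per kilobase of exon, Insig1 exceeded Insig2 by a ratio of 1.82, 2.44 and 4.21 across control 1 to 3 and 28.7, 2.76 and 5.65 across sh2-Ift88 1 to 3. Scap, the escort of both SREBPs, was at 69.5, 57.0 and 85.2 CPM across control 1 to 3 and at 85.6, 79.2 and 78.7 CPM across sh2-Ift88 1 to 3, with overlapping groups and the smallest spread of the regulators. Its log2 fold change was 0.20, and 0.064 without control 2.

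The early sterol enzymes, from acetyl-CoA to squalene, held 1 gene whose groups did not overlap, Mvk, and 1 with a library far apart, Hmgcs1. Hmgcs1, which makes HMG-CoA, was at 629, 163 and 149.5 CPM across control 1 to 3 and at 235, 300.5 and 303 CPM across sh2-Ift88 1 to 3. The highest library was control 1, at more than 2 times any other, while the other 2 controls were the lowest. Its log2 fold change came to -0.17 ± 0.57 (SE), and it turned to 0.83 without control 1. Mvk, mevalonate kinase, was at 19.2, 22.3 and 18.2 CPM across control 1 to 3 and at 25.4, 25.03 and 24.5 CPM across sh2-Ift88 1 to 3. Its groups did not overlap, but they lay close, and its log2 fold change came to 0.33 ± 0.22 (SE). Mvd, mevalonate diphosphate decarboxylase, was at 27.7, 23.5 and 17.9 CPM across control 1 to 3 and at 41.0, 23.9 and 39.0 CPM across sh2-Ift88 1 to 3, with sh2-Ift88 1 and 3 high and sh2-Ift88 2 among the controls (log2 fold change 0.59). The farnesyl diphosphate synthase Fdps was at 70.8, 77.7 and 82.2 CPM across control 1 to 3 and at 159, 50.3 and 108 CPM across sh2-Ift88 1 to 3. Here sh2-Ift88 2 was the lowest library of all 6 and sh2-Ift88 1 the highest, with a log2 fold change of 0.46, and of 0.025 without sh2-Ift88 1. Acat2, which joins acetyl-CoA units, ran from 18.5 to 59.9 CPM: control 3 was low and the other 5 libraries lay between 51.4 and 59.9 CPM, for a log2 fold change of 0.41, and of 0.044 without control 3. The kinase Pmvk (14.0 to 20.3 CPM), the isomerase Idi1 (17.6 to 36.7 CPM) and the squalene synthase Fdft1 (29.2 to 53.2 CPM) had overlapping groups and log2 fold changes of -0.022, 0.37 and 0.16. Idi1 was 0.090 without sh2-Ift88 3, Fdft1 -0.017 without sh2-Ift88 1, and Pmvk ran from -0.17 to 0.12 with a library left out.

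The late sterol enzymes, from squalene to cholesterol, held the sterol genes of smallest p. Cyp51, the lanosterol demethylase, was at 216, 241 and 234 CPM across control 1 to 3 and at 471, 271 and 312 CPM across sh2-Ift88 1 to 3. Every sh2-Ift88 library lay above every control, and its log2 fold change came to 0.61 ± 0.29 (SE) (unadjusted p = 0.0704). Without sh2-Ift88 1 that fold change was 0.32, and with library totals alone the groups of Cyp51 overlapped. Lss, which closes squalene epoxide into lanosterol, was at 27.9, 39.3 and 39.2 CPM across control 1 to 3 and at 73.0, 34.1 and 64.7 CPM across sh2-Ift88 1 to 3. The libraries sh2-Ift88 1 and 3 were high and sh2-Ift88 2 lay below control 2 and 3. Its log2 fold change came to 0.69 ± 0.33 (SE). Tm7sf2, a sterol reductase, was at 3.15, 3.32 and 2.52 CPM across control 1 to 3 and at 5.38, 3.46 and 8.87 CPM across sh2-Ift88 1 to 3. It had the fewest counts of any member, its groups did not overlap, and its log2 fold change came to 0.97 ± 0.48 (SE). Without sh2-Ift88 3 the log2 fold change of Tm7sf2 was 0.53. Exons of Tm7sf2 share bases with Vps51 on the same strand and those of Cyp51 with Akap9 on the other, so reads of these genes may be mixed. Dhcr7, which makes cholesterol in the last step of the Kandutsch-Russell route, was at 12.99, 13.50 and 14.6 CPM across control 1 to 3 and at 18.3, 13.7 and 28.8 CPM across sh2-Ift88 1 to 3, so sh2-Ift88 3 stood apart (log2 fold change 0.56, and 0.19 without it). The ketoreductase Hsd17b7 (35.7 to 67.4 CPM) and the desaturase Sc5d (27.8 to 38.3 CPM) had log2 fold changes of 0.41 and 0.24, and the sterol carrier Stard4 (34.7 to 57.3 CPM) one of 0.12. Without sh2-Ift88 3 the values were 0.19 for Hsd17b7 and -0.059 for Stard4.

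Sqle, the squalene epoxidase, was highest in a control. It was at 74.3, 82.6 and 437 CPM across control 1, 2 and 3 and at 239, 111 and 163 CPM across sh2-Ift88 1, 2 and 3. Control 3 held 3.92 times the median of the other 5, and each sh2-Ift88 library lay above control 1 and 2. Its log2 fold change came to -0.21 ± 0.71 (SE), and without control 3 it was 1.12. Ebp and Nsdhl are sterol enzymes on the X chromosome, and Ebp was also set apart by a single library. Ebp, a sterol isomerase, was at 26.5, 8.94 and 11.1 CPM across control 1 to 3 and at 9.25, 11.8 and 12.2 CPM across sh2-Ift88 1 to 3, with control 1 more than 2 times any other library (log2 fold change -0.48, and 0.15 without control 1). Nsdhl, which acts in the removal of sterol methyl groups, was at 20.2, 8.91 and 7.07 CPM across control 1 to 3 and at 12.7, 17.8 and 21.4 CPM across sh2-Ift88 1 to 3, with control 1 and sh2-Ift88 2 and 3 high (log2 fold change 0.52, from 0.24 without control 3 to 1.11 without control 1). The 20 genes nearest Nsdhl were at 1.58 and 1.49 times the other libraries in control 1 and sh2-Ift88 2, and at 1.02 in sh2-Ift88 3.

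Many genes beside Sqle and Ebp on their chromosomes were high in the same library, and those beside Hmgcs1 were not. Sqle lies on chromosome 15. Of the 20 tested genes nearest in order, 10 on each side, 13 were highest in control 3, and the median of their ratios to the other 5 libraries was 2.59. Over all tested genes, 23.0% were highest in control 3, 17.8% in control 1, 17.9% in sh2-Ift88 1 and 16.3% in sh2-Ift88 3. Among them the ratio was 4.29 for Ndufb9, 3.73 for Trmt12, 3.77 for Nsmce2, 3.29 for Myc and 3.25 for Rnf139, an ubiquitin ligase of the endoplasmic reticulum. Others were not high: Fam84b, Asap1 and Efr3a were at 0.570, 0.860 and 0.601. Over all genes with a median of at least 10 CPM, 4.59% were at 2 times the other libraries or more in control 3, against 11 of the 18 neighbours of Sqle that met the same minimum. For Ebp, 12 of 20 neighbours were highest in control 1, with a median ratio of 1.78, and the median ratio of all X chromosome genes in that library was 1.63. For Hmgcs1, 1 of 12 neighbours were highest in control 1 and the median ratio was 0.882. Beside Dhcr7, 9 of 20 neighbours were highest in sh2-Ift88 3 with a median ratio of 1.29, and beside Insig1 7 of 20 in sh2-Ift88 1 with 1.18. Beside Fdps and Tm7sf2, 2 of 20 each were highest in the member's library, and beside Acss2 1 of 20. The cause of these levels was not tested, and these genes were singled out after their values were seen.

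**Figure D2:**
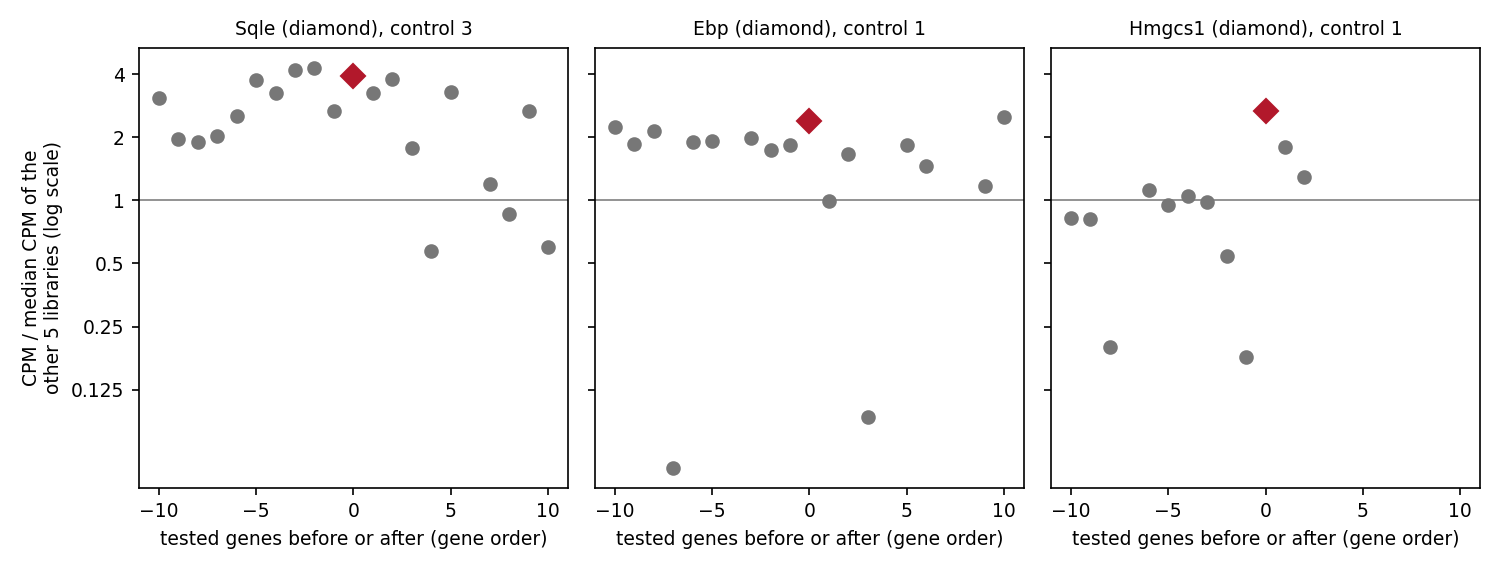
Level of each member (diamond) and of its neighbours in gene order (grey points) in the library where the member was highest, as CPM over the median of the other 5 libraries, on a log axis, for Sqle in control 3, Ebp in control 1 and Hmgcs1 in control 1. Neighbours at 0 or with a median under 1 CPM in the other libraries are not drawn, and the points beside Sqle lie mostly near or above 2 while those beside Hmgcs1 lie below 2.

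In the fatty acid arm the groups did not overlap for 2 desaturases, Fads1 and Scd1, with TMM scaling. With library totals alone both overlapped. Fads1, the delta-5 desaturase of long polyunsaturated chains, was at 114, 111 and 72.0 CPM across control 1 to 3 and at 187, 148 and 163 CPM across sh2-Ift88 1 to 3. Every sh2-Ift88 library lay above every control, and its log2 fold change came to 0.75 ± 0.26 (SE) (unadjusted p = 0.0233). Scd1, a delta-9 desaturase that makes oleate, was at 146, 104 and 75.2 CPM across control 1 to 3 and at 181, 186 and 152 CPM across sh2-Ift88 1 to 3. Its groups did not overlap either, by a narrow gap between control 1 and sh2-Ift88 3, and its log2 fold change came to 0.67 ± 0.29 (SE) (unadjusted p = 0.0548). Scd2, the main delta-9 desaturase of brain, was at 585, 395 and 355 CPM across control 1 to 3 and at 541, 579 and 535 CPM across sh2-Ift88 1 to 3. Control 1 was the highest library, so Scd2 overlapped, and its log2 fold change came to 0.31 ± 0.29 (SE). Per kilobase of exon, Scd2 exceeded Scd1 by a ratio of 3.58, 3.39 and 4.22 across control 1 to 3 and 2.68, 2.79 and 3.15 across sh2-Ift88 1 to 3, without overlap of the groups. No share over other gene pairs was computed to set beside it. Fads2, the delta-6 desaturase, was at 52.8, 38.6 and 18.5 CPM across control 1 to 3 and at 55.0, 49.8 and 38.6 CPM across sh2-Ift88 1 to 3, with overlap and a log2 fold change of 0.39. It was 0.061 without control 3 and 0.74 without control 1, and Scd2 was 0.16 and 0.56 in the same fits.

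The enzymes that build the chain did not separate. Fasn, the fatty acid synthase, was at 457, 289 and 399 CPM across control 1 to 3 and at 469, 401 and 365 CPM across sh2-Ift88 1 to 3. Control 2 and sh2-Ift88 3 were the lowest libraries, and its log2 fold change came to 0.11 ± 0.28 (SE). Acaca, which makes malonyl-CoA, ran from 106 to 147 CPM and Acly, which makes cytosolic acetyl-CoA from citrate, from 210.5 to 337 CPM, with log2 fold changes of 0.20 and 0.34. With a library left out in turn Fasn ran from -0.061 to 0.26, Acaca from 0.10 to 0.28 and Acly from 0.19 to 0.49. Acss2, which makes acetyl-CoA from acetate, was at 229.8, 111 and 52.0 CPM across control 1 to 3 and at 88.3, 109 and 151 CPM across sh2-Ift88 1 to 3. Control 1 was highest and control 3 lowest, so both ends of Acss2 were controls, and its log2 fold change was -0.17, and 0.51 without control 1. The 20 genes nearest Acss2 were at 1.02 times the other libraries in control 1 and at 0.64 in control 3. Relative to those genes the log2 fold change of Acss2 was -0.37. Elovl6, which lengthens palmitate, had the lowest log2 fold change of this arm and overlapping groups, at 36.0, 49.6 and 60.8 CPM across control 1 to 3 and at 39.8, 30.4 and 36.1 CPM across sh2-Ift88 1 to 3, and its log2 fold change came to -0.46 ± 0.27 (SE) (unadjusted p = 0.124), and -0.28 without control 3.

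**Figure D3:**
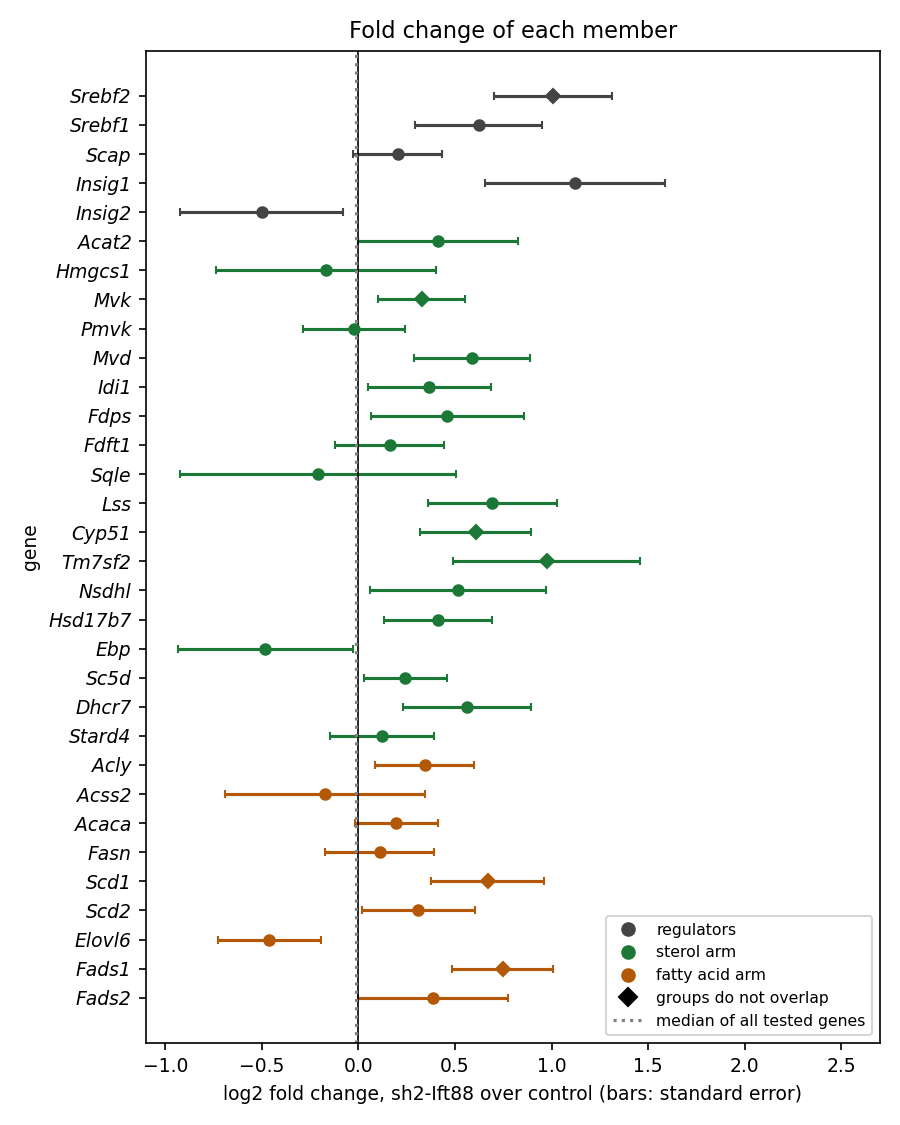
Log2 fold change of sh2-Ift88 over control for each member with its standard error, by edgeR, in dark grey for regulators, green for the sterol arm and orange for the fatty acid arm. Diamonds mark the 6 members whose groups did not overlap, and the dotted line is the median of all tested genes (-0.012), and with library totals alone 17 and not 25 members would lie above 0.

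Both arms leaned the same way, and their difference did not separate the groups. In the sterol arm 14 of 18 genes were higher in sh2-Ift88 (10 of 18 with library totals alone), with a median log2 fold change of 0.39, and 0.20 without sh2-Ift88 3. In the fatty acid arm 7 of 9 were higher (4 of 9 with library totals alone), with a median of 0.31, which was 0.16 without control 3, 0.19 without sh2-Ift88 3 and 0.51 without control 1. The median of all tested genes was -0.012, and relative to its own median of all genes the fit with library totals alone gave 0.35 and 0.31. The mean of log2(CPM + 1) over the sterol arm was 5.28, 5.003 and 5.03 across control 1 to 3 and 5.53, 5.14 and 5.62 across sh2-Ift88 1 to 3. The library sh2-Ift88 2 lay below control 1, so the sterol arm overlapped. Over the fatty acid arm the same mean took the values 7.31, 6.95 and 6.72 across control 1 to 3 and 7.33, 7.23 and 7.28 across sh2-Ift88 1 to 3, with control 1 inside the narrow range of sh2-Ift88 and control 3 lowest. The sterol mean minus the fatty acid mean was -2.03, -1.95 and -1.70 across control 1 to 3 and -1.80, -2.09 and -1.65 across sh2-Ift88 1 to 3, with complete overlap and a group difference of 0.045. Control 3, low in the fatty acid arm, had the highest neuron and oligodendrocyte sums: 9 mature neuron markers summed to 55.8, 162 and 503 CPM across control 1 to 3 and 213, 161 and 33.2 CPM across sh2-Ift88 1 to 3, and 13 oligodendrocyte markers to 22.6, 126 and 269 CPM across control 1 to 3 and 67.7, 104 and 24.4 CPM across sh2-Ift88 1 to 3. The 8 astrocyte markers, another glial type, summed to 335, 528 and 862 CPM across control 1 to 3 and 916, 719 and 359.8 CPM across sh2-Ift88 1 to 3. That sum was highest in sh2-Ift88 1, where Gja1 alone was at 480 CPM and Aldoc at 188 CPM. Gfap, Aqp4, Slc1a2, Slc1a3 and S100b were each highest in control 3, and Aldh1l1 in sh2-Ift88 3. Of 11 tested oligodendrocyte markers, 0 were higher in sh2-Ift88, against 48.7% of all genes. The groups overlapped for each oligodendrocyte marker, while 8.39% of all genes did not overlap. Of the 8 astrocyte markers 1 did not overlap, Gja1, higher in sh2-Ift88. Of the 9 neuron markers 1 did not, Stmn2, lower in sh2-Ift88. Sox10 was at 1, 11 and 31 counts across control 1 to 3 and at 0, 12 and 0 counts across sh2-Ift88 1 to 3. Ugt8a was at 0 counts in control 1. The 4 adipocyte markers summed to at most 1.69 CPM. The part of these cell types in the arms' levels was not tested.

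**Figure D4:**
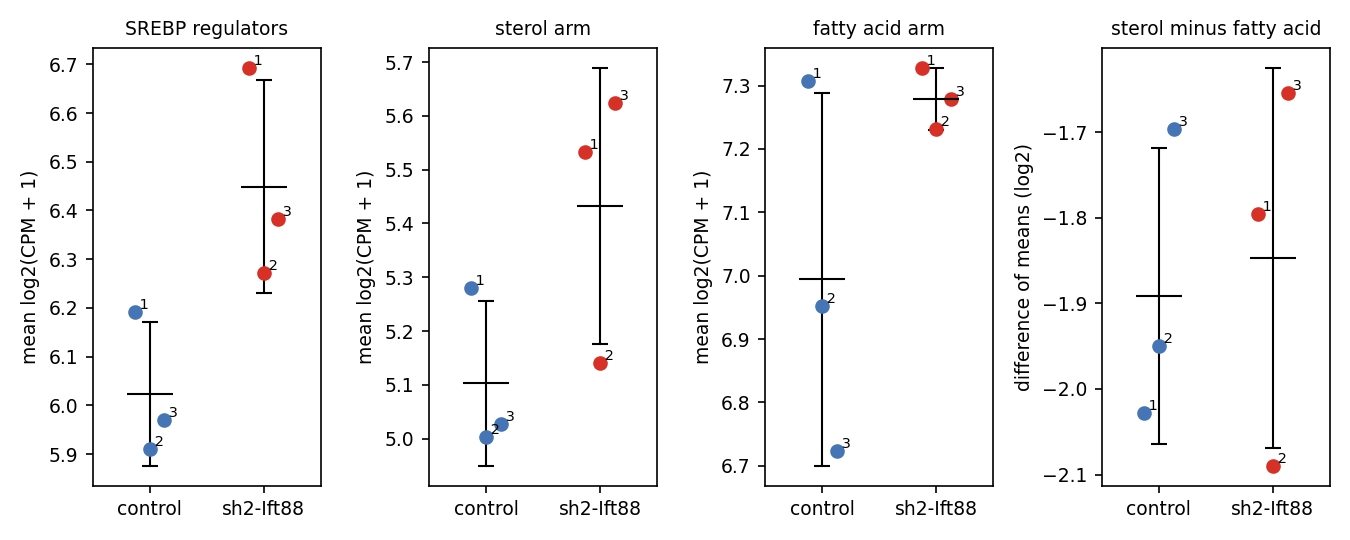
Mean log2(CPM + 1) over the regulators, the sterol arm and the fatty acid arm in each library, and the sterol mean minus the fatty acid mean, with control in blue and sh2-Ift88 in red, replicate numbers beside the points, and bars for the group mean ± SD (n = 3). The axes do not start at 0. With TMM scaling only the regulators' panel shows no overlap, with sh2-Ift88 1 highest, and no share over other gene sets was computed.

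By library, sh2-Ift88 1 was the highest library for 14 of 32 members, against 17.9% of all genes, and sh2-Ift88 3 for 8, against 16.3%. Control 3 was lowest for 13, against 24.6% of all genes, control 2 for 8, against 11.1%, and sh2-Ift88 3 for 0, against 14.3%. Of the regulators, 4 of 5 were highest in sh2-Ift88 1, the library with choroid plexus transcripts, whose part in these levels was not tested. Their mean log2(CPM + 1) was 6.19, 5.91 and 5.97 across control 1 to 3 and 6.69, 6.27 and 6.38 across sh2-Ift88 1 to 3, without overlap. That separation rests on TMM scaling, whose factor was 0.598 in sh2-Ift88 3. With library totals alone no regulator separated the groups by itself. No share over other sets of 5 genes was computed, so the regulators' mean is a description. Without sh2-Ift88 1, the median log2 fold changes were 0.30 for the sterol arm and 0.26 for the fatty acid arm. Within control 2 and sh2-Ift88 2 and 3, which share reads of silent genes, they were 0.41 and 0.42, with 1 control. Within control 1 and 3 and sh2-Ift88 1 they were 0.38 and 0.17, with 1 sh2-Ift88 library.

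Set against neighbouring genes, the arms' medians moved little and single members moved more. Srebf2 lies on chromosome 15, whose genes had a median log2 fold change of 0.33 and were at 1.37 and 1.23 times the other libraries in sh2-Ift88 1 and 2. Of its 20 neighbours in gene order, 9 were also highest in sh2-Ift88 1, against 17.9% of all genes. Relative to its 20 nearest genes of at least 10 CPM, the log2 fold change of Srebf2 was 0.56, and that of Insig1 was 0.94. For Srebf1, whose neighbours ran the other way, it was 0.90. On the same scale Sqle moved to 0.051 and Ebp to -0.11, and Elovl6 stayed at -0.40. The sterol arm median was 0.38 with 16 of 18 above 0, and the fatty acid arm median 0.28 with 7 of 9. Relative to the median of each member's chromosome, the sterol arm median was 0.38 with 14 of 18 above 0. The fatty acid arm median was then 0.27 with 7 of 9. Both scales were chosen after the data were seen.

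**Figure D5:**
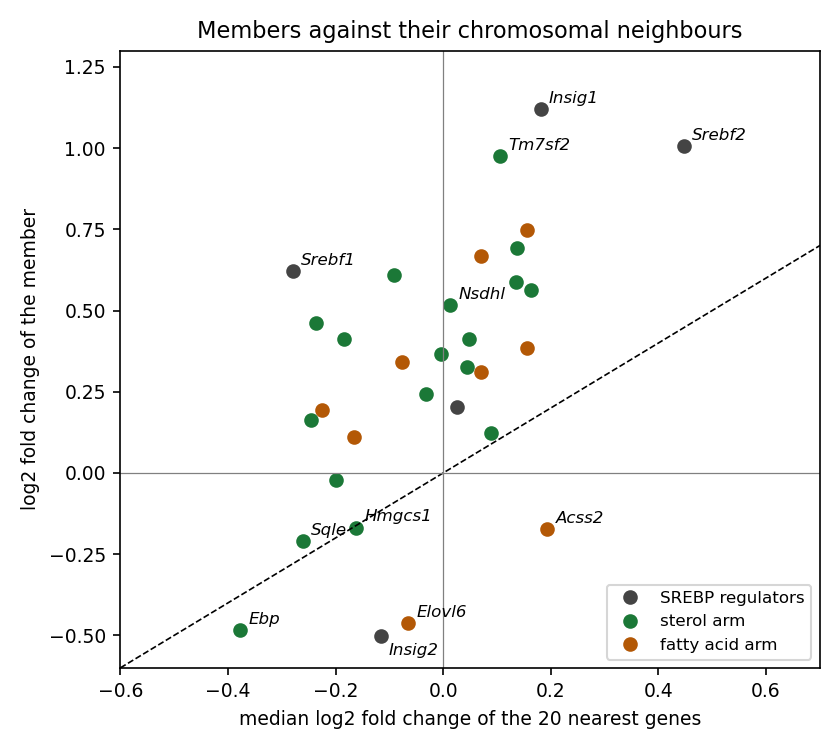
Log2 fold change of each member (sh2-Ift88 over control) against the median log2 fold change of its 20 nearest genes, with the dashed line at equality. Most members lie above the line, Srebf2 has the neighbours farthest to the right, and Sqle, Ebp, Hmgcs1 and Stard4 lie close to the line.

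Per kilobase of annotated exon, the most abundant members were Scd2, Hmgcs1 and Cyp51. Their medians over the 6 libraries were 98.4, 58.2 and 58.1 CPM per kilobase. Hmgcs1 and Cyp51 did not differ beyond their ranges, which ran from 32.5 to 137 and from 49.0 to 107. Acly, Fasn, Scd1 and Fads1 followed at medians of 45.2, 36.5, 30.5 and 27.3, so that 5 of the 7 highest members were of the fatty acid arm. The lowest were Lss, Dhcr7 and Tm7sf2, at 3.64, 2.43 and 0.770. Exon length was the union over all annotated transcripts, which can exceed the transcripts made here, so this order is approximate. Lss, with 10787 exon bases, had a median of 39.2 CPM before division by length, above Mvk at 23.4 and Pmvk at 18.0 CPM. Srebf1 and Srebf2 were close to each other per kilobase, with a Srebf2 to Srebf1 ratio of 0.631, 0.898 and 0.721 across control 1 to 3 and 0.959, 0.936 and 0.965 across sh2-Ift88 1 to 3. The ratio was higher in each sh2-Ift88 library than in each control. The gap was narrow, from 0.898 in control 2 to 0.936 in sh2-Ift88 2. For Insig1 to Insig2 and Fads1 to Fads2 the ratios overlapped between the groups. How often the ratio of other gene pairs separates the groups was not computed, so the separation of Srebf2 to Srebf1 and Scd2 to Scd1 is a description.

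Genes around the 2 arms gave no calls. Of 9 tested genes of further sterol synthesis and uptake, the fold change was above 0 for 7 and below 0 for 2, and its median on the log2 scale was 0.60. The summed level of the 10 listed genes with a row was 506, 441 and 516 CPM across control 1 to 3 and 901, 433 and 699.9 CPM across sh2-Ift88 1 to 3, again highest in sh2-Ift88 1. Of 10 genes of SREBP processing and turnover, 6 were higher and 4 lower. Among them Erlin2, a membrane protein of the endoplasmic reticulum, was at 68.9, 57.6 and 30.8 CPM across control 1 to 3 and at 65.8, 72.3 and 86.7 CPM across sh2-Ift88 1 to 3. Control 1 lay above sh2-Ift88 1, so the groups overlapped for Erlin2, and its log2 fold change came to 0.51 ± 0.33 (SE). Of 15 oxysterol receptor targets and export genes, 6 lay above 0 and 9 below, around a median of -0.13. In that list the lipoprotein gene Apoe was at 271, 220.0 and 333 CPM across control 1 to 3 and at 490.4, 746 and 310.3 CPM across sh2-Ift88 1 to 3, and Cyp27a1, a sterol hydroxylase, at 12.8, 8.36 and 4.77 CPM across control 1 to 3 and at 8.15, 16.6 and 21.1 CPM across sh2-Ift88 1 to 3. Both overlapped between the groups. Of 26 further fatty acid genes, 16 were higher and 10 lower. The groups did not overlap for 3 higher in sh2-Ift88 and 2 lower, against 4.70% and 3.69% of all genes. Acacb, the mitochondrial acetyl-CoA carboxylase, was at 6.63, 15.6 and 4.80 CPM across control 1 to 3 and at 16.5, 45.7 and 13.9 CPM across sh2-Ift88 1 to 3 with sh2-Ift88 2 highest, and Ptpla, a dehydratase of chain lengthening, was lower in each sh2-Ift88 library at 35.1, 35.3 and 30.0 CPM across control 1 to 3 and at 26.3, 17.1 and 18.7 CPM across sh2-Ift88 1 to 3.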

How the data were processed

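The authors deposited 1 table of whole-number gene counts per library, without normalization. Per the labels' protocols, RNA libraries were strand-marking (Illumina TruSeq, total RNA), and the submitters' processing notes name BWA and the build mm9. The sources used here do not give the counting program, annotation, strand setting or handling of reads with several matches. Each table ended in 5 tallies, which were left out. Reads without a feature took 18.8% to 39.5% of tallied reads. Without a stated strand setting, 12 members whose exons share bases with another gene in GENCODE M21 (among them Cyp51 with Akap9, Fdft1 with Ctsb, Srebf1 with Rai1 and Tm7sf2 with Vps51) and the similar Scd1 and Scd2 are uncertain.

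The test was that of edgeR 4.0.16, run in R 4.3.3 (filterByExpr, TMM, glmQLFit with robust=TRUE, two-sided glmQLFTest) on all genes, 3 libraries against 3, with Benjamini-Hochberg adjustment at 0.05. The same code was run on simulated counts with a fixed spread and large changes in well-counted genes. That run does not show how the test performs at the spread of these libraries. CPM values were computed from the deposited counts. The alternatives were DESeq2 1.42.0, limma-voom (limma 3.58.1), other scalings, filters and libraries left out. No pair of libraries in a group had identical counts. Replicate numbers follow accession order and pair nothing. Neighbours and chromosomes came from RefSeq (GRCm38.p6) and exon lengths from GENCODE M21, which are not the files' build, and promoter sequences from RefSeq. In 27 of 33 member windows the 20 bases after the start were found in a GENCODE transcript. The members and gene lists were chosen with earlier results of these data known. Values in all libraries were given for the regulators, Sqle, Fasn, Scd1, Scd2, members whose groups did not overlap and the 3 of smallest p per arm, and 2 genes of smallest p per further list. Other members' per-library values were chosen after they were seen. A few genes that this rule selects are left out here. Mean ± SD values are over 3 libraries.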

Additional observations from a re-analysis of the deposited data

How the results depend on the processing

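No member passed edgeR, DESeq2 or limma-voom under any alternative run. Over all genes DESeq2 called 75 and edgeR without a filter called 6, against 0; both test more genes of low count. The sterol and fatty acid medians were 0.022 and -0.017 with library totals alone, which shifted the median of all genes to -0.33. With libraries left out in turn they ran from 0.20 to 0.46 (lowest without sh2-Ift88 3) and from 0.16 to 0.51 (lowest without control 3, highest without control 1, and 0.19 without sh2-Ift88 3). The sterol minus fatty acid difference between groups ran from -0.049 to 0.17. Members whose groups did not overlap numbered 1 with library totals alone, 6 to 15 with a library left out (15 without control 1 or sh2-Ift88 2, 12 without control 3), and 23 within each set of 3 libraries by reads of silent genes, where 65.4% (with such reads) and 62.0% (without) of all genes did not overlap either. Of 544 member values under alternatives, 34 changed sign, in 14 members. With library totals alone the log2 fold changes were Scap -0.12, Idi1 -0.042, Fdft1 -0.12, Sc5d -0.070, Stard4 -0.24, Acly -0.017, Acaca -0.13, Fasn -0.18, each above the median of all genes in that fit. With limma-voom they were Hmgcs1 0.16, Sqle 0.25, Acss2 0.041, and with a term for reads of silent genes Hmgcs1 0.077, Sqle 0.32. Within the libraries with such reads they were Hmgcs1 0.87, Sqle 0.72, Ebp 0.41, Acss2 0.22, and within those without them Pmvk 0.095, Nsdhl -0.13, Stard4 -0.49, Acaca -0.028. With libraries left out in turn the ranges were Hmgcs1 -0.51 to 0.83, Pmvk -0.17 to 0.12, Fdft1 -0.017 to 0.38, Sqle -0.60 to 1.12, Ebp -0.77 to 0.15, Stard4 -0.059 to 0.29, Acss2 -0.56 to 0.51, Fasn -0.061 to 0.26. The cause of these sign changes was not tested. Removing single libraries leaves a group of 2, and within a set of 3 libraries the lone sample is assumed to vary like the others. No paired analysis was possible because the labels carry no replicate numbers. The rarest member, Tm7sf2, had 102 to 190 counts per library, the fewest of any member.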
